A study of Drosophila melanogaster with 14 samples.

Results

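The stem cell niche of the Drosophila testis is somatic: a cluster of hub cells at the tip signals to the germline stem cells and to the cyst stem cells around it, and the daughters of the cyst stem cells enclose each group of germ cells as it matures. The 10 genes described here are usually read as marking these cells: 3 hub genes (upd1, Fas3 and hh), 6 genes of the early cyst lineage (tj, zfh1, chinmo, ptc, Egfr and dome) and 1 gene of later cyst cells (eya). They were taken by name from the per-library gene tables, and all 10 were found, among 16078 genes that could be joined over 14 libraries. Of the names, 9 matched by symbol, and upd1, listed under its older symbol os, matched by its FBgn number. All 10 passed the filter on low values, an FPKM (a fragment number corrected for the length of the transcript and the depth of the library) of at least 1 in at least 2 libraries.

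The testes came from 3-day-old adult males kept at 23 °C, and each library holds polyadenylated RNA from 50 dissected testes. There were 2 libraries, described as biological replicates, for each of 7 genotypes: mip40/bam (mutant for mip40 and bam), bam, comr, can, mip40 and CG9879 mutants, and wild type (wt). Which alleles were used is not stated in the sources at hand. In textbook accounts, bam mutant testes fill with spermatogonia that do not differentiate, whereas comr, can and mip40 mutants hold spermatocytes that stop before meiosis; comr and mip40 encode subunits of a meiotic-arrest complex of testis and can a testis form of a general transcription factor subunit.

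Hub cells secrete Upd1, which binds the receptor Domeless (Dome) and activates Stat92E through the kinase Hopscotch in neighbouring stem cells. They also secrete Hedgehog, which acts through Patched and Smoothened on cyst stem cells, and they adhere through Fasciclin 3 and cadherins. Traffic jam (Tj), Zfh1 and Chinmo are transcription factors of cyst stem cells and their early daughters, Eyes absent (Eya) appears in cyst cells as they differentiate, and the EGF receptor (Egfr) on cyst cells receives the ligand Spitz from the germ cells.

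Depth, worked out from the confidence limits deposited with the FPKM values, was 3120000 to 7690000 fragments a library, with mip40/bam the deepest. FPKM in wt and CG9879 libraries sat low for genes detected in all libraries: size factors by the median of ratios were 0.54 to 0.58 there and 1.20 to 1.35 in the other 10. That choice of scale moves the median of all genes tested in bam against wt to -0.46, from 0.21 as deposited (log2), and moves the other contrasts of an arrested mutant with wt by a similar amount. Each direction of a member against wt is therefore given with its outcome under 4 scalings: FPKM as deposited, median of ratios, quantile normalization and equal summed FPKM. Summed FPKM of 12 accessory gland and ejaculatory duct genes was 2202 to 10511 in 1 library each of comr, can, CG9879 and wt, and 83.9 to 992 in the other 10. Summed FPKM of 6 early germ cell genes was 1106 and 1149 in mip40/bam, 1641 and 1513 in bam, 182 and 114.9 in can, 262 and 275 in comr, 277 and 259.7 in mip40, 39.1 and 31.6 in CG9879 and 46.8 and 50.4 in wt. Germ cell genes thus differed with the genotype, and their part in the differences below was not tested. Of the genes named by the genotypes, CG9879 had 0.76 and 1.30 FPKM in CG9879 mutants, against 64.0 and 53.4 in wt, and mip40 had 25.8 and 27.4 FPKM in mip40/bam, against 59.1 and 60.4 in bam. RNA of the named gene was not below the wt level in comr (19.2 and 17.8 FPKM of comr, against 6.45 and 8.48 in wt) or can (52.6 and 50.1 FPKM of can, against 15.7 and 15.4 in wt), and overlapped or neighboured it in bam (2.91 and 0 FPKM of bam, against 3.14 and 2.81 in wt) and mip40 (20.8 and 20.2 FPKM of mip40, against 22.8 and 20.9 in wt). A gene's RNA need not fall in its mutant, so set against wt the labels of these 4 genotypes are not checked by it. Among the spermatocyte-arrest mutants, mip40 RNA was lowest in mip40, against 105.0 and 99.6 FPKM in comr and 135.8 and 125.25 in can. The RNA of comr was lowest in comr, against 26.7 and 27.4 FPKM in can and 23.3 and 21.7 in mip40. For can, RNA in can overlapped that in mip40 (58.5 and 47.6 FPKM). For bam, RNA was 0.91 and 0.66 FPKM in mip40/bam, against 17.0 to 31.4 in comr, can and mip40.

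**Figure D1:**
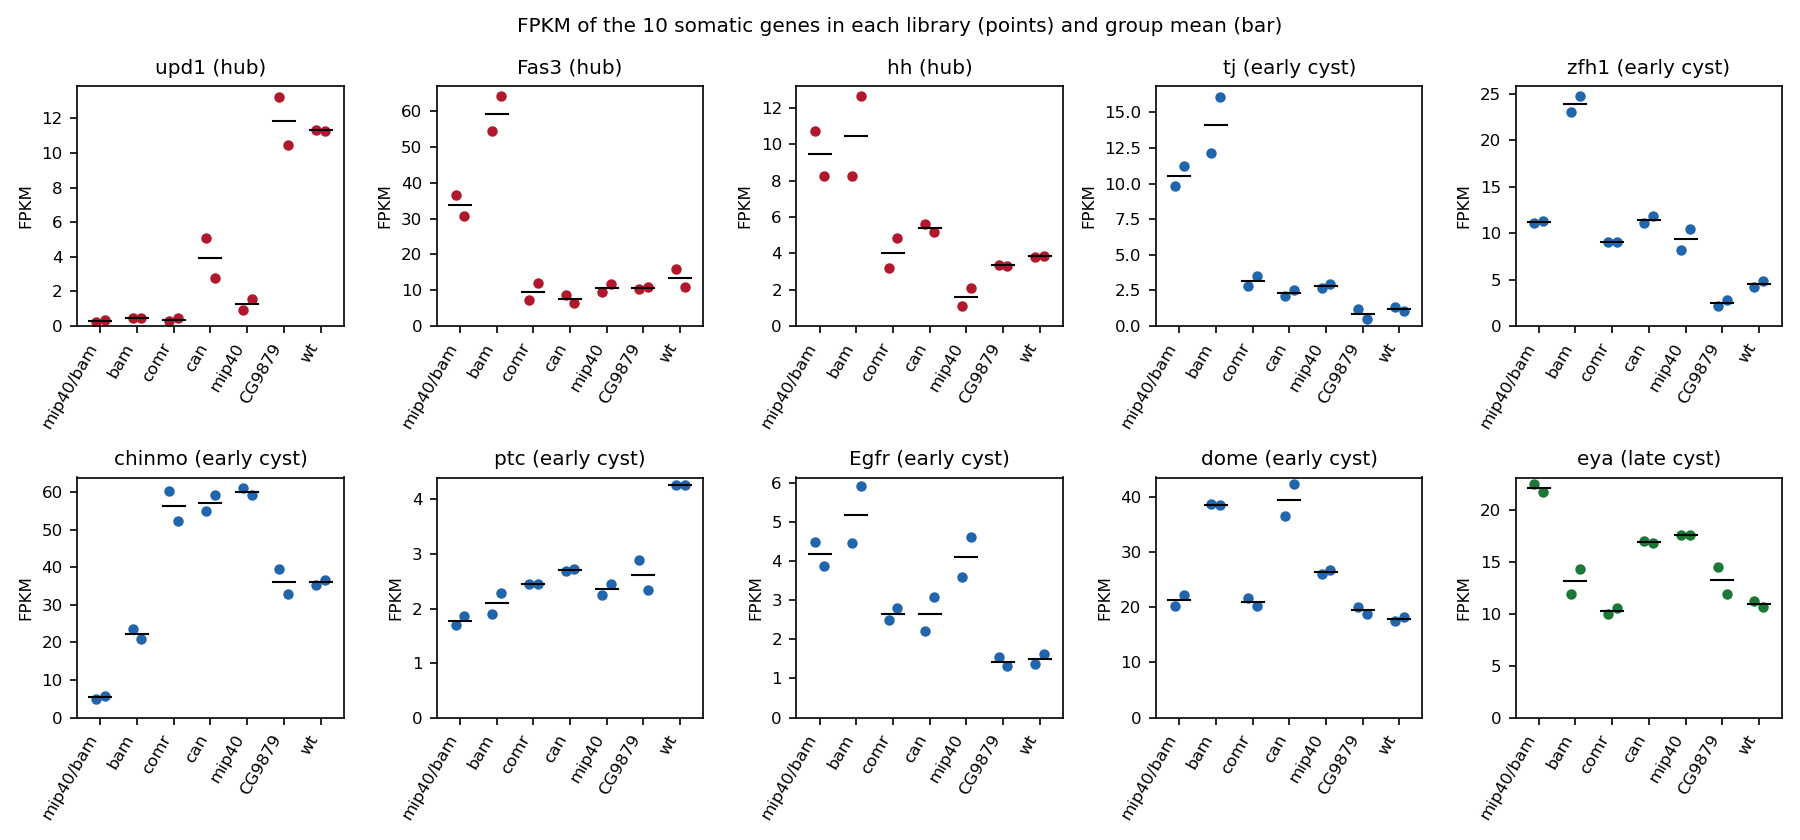
FPKM of the 10 somatic genes (linear vertical axes from 0, one panel a gene) in the 2 libraries (points) of each of 7 genotypes, with the mean as a bar; colours mark hub, early cyst and late cyst genes. upd1 is high in CG9879 and wt, tj is highest in bam and mip40/bam, and chinmo is lowest in mip40/bam.

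The 3 hub genes did not follow one pattern. Over the 14 libraries, Pearson's r on the log2(FPKM + 1) scale was -0.46 between upd1 and Fas3 and -0.36 between upd1 and hh, against 0.76 between Fas3 and hh. These are descriptions over libraries that share 7 genotypes and the scale above. The word hub is used below as the usual label of these genes and not as a measure of hub cells.

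upd1 (FBgn0004956; chromosome X, 18305354 to 18309291, minus strand; BDGP6), the JAK-STAT ligand of the hub, was near 0 in mip40/bam, bam and comr. It had 0.23 and 0.38 FPKM in mip40/bam, 0.27 and 0.46 in comr and 0.44 and 0.48 in bam. It had 0.96 and 1.59 FPKM in mip40, 5.08 and 2.77 in can, 13.23 and 10.49 in CG9879 and 11.32 and 11.30 in wt. These FPKM values rest on about 1 to 10 fragments a library in mip40/bam, bam and comr, and on about 111 to 123 in CG9879 and wt, an approximate number for genes with several transcripts. The libraries of bam, comr, mip40 and can all lay below those of wt, while those of CG9879 lay on either side of them. In limma's test on log2(FPKM + 1), with Benjamini-Hochberg adjustment over all genes, upd1 fell in bam by 3.07 (SE 0.23, adjusted p = 1.13e-06), in comr by 3.17 (1.02e-06), in mip40 by 2.45 (8.29e-06) and in can by 1.36 (5.46e-04) against wt. These 4 calls had the same direction in each of the 4 scalings. In CG9879 the difference from wt was 0.06 (SE 0.23, adjusted p = 0.98). In RNA of whole testes, fewer cells of a type and less RNA per cell cannot be told apart. Summed FPKM of 6 spermatid genes was also highest in CG9879 and wt, and the part of late germ cells in upd1 was not tested.

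The mutants that stop as spermatocytes differed in upd1. Its level was lower in comr than in can, where 3 of the 10 genes were called beside 54.7% of all genes tested, by -1.81 (limma, adjusted p = 1.41e-04), in each scaling, and lower in mip40 than in can, where 4 were called beside 51.6%, by -1.09 (adjusted p = 0.00397), a call that quantile normalization ended (-0.42, adjusted p = 0.109). The other genes of the same ligand family stayed low in every library: upd2 had at most 0.32 FPKM and upd3 at most 0.66 FPKM. The genes whose profile over the 14 libraries was most like that of upd1 were CG14546 (r = 0.99), Yu (0.99) and FucTD (0.99). FucTD had 0.05 and 0.11 FPKM in mip40/bam, 0 and 0.46 in comr, 0.47 and 0.32 in bam, 4.03 and 5.38 in mip40, 19.8 and 19.6 in can, 197 and 196 in CG9879 and 166 and 170.0 in wt. CG14546 had 110.8 ± 9.2 FPKM in CG9879 and 110.2 ± 0.5 in wt (SD, n = 2 each), and was listed at 0 in both libraries of mip40/bam and of comr.

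Fas3 (FBgn0000636; chromosome 2L, 18320102 to 18393441, plus strand), a homophilic adhesion protein at hub cell contacts, was highest in the testes mutant for bam. It had 36.5 and 30.9 FPKM in mip40/bam, 54.4 and 64.2 in bam, 8.78 and 6.56 in can, 7.29 and 11.9 in comr, 9.64 and 11.9 in mip40, 10.3 and 10.97 in CG9879 and 16.0 and 10.9 in wt. The 4 libraries of mip40/bam and bam lay above all 10 others. Against wt, Fas3 rose by 2.08 in bam (SE 0.25, limma, adjusted p = 3.04e-05) in each scaling, a mean fold of 4.403. It fell by 0.73 in can (adjusted p = 0.0238) in each scaling, a call lost without can replicate 2 (-0.54, adjusted p = 0.142), without wt replicate 1 (-0.47, adjusted p = 0.171) and without the 4 libraries with accessory gland RNA (-0.66, adjusted p = 0.0626). The differences of comr and mip40 from wt were -0.46 (adjusted p = 0.118) and -0.28 (adjusted p = 0.332), and both were called lower under median-of-ratios scaling and quantile normalization.

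hh (FBgn0004644; chromosome 3R, 23128169 to 23141906, minus strand), the Hedgehog ligand, had 10.7 and 8.24 FPKM in mip40/bam and 8.24 and 12.6 in bam, groups that overlap. It had 3.19 and 4.86 FPKM in comr, 5.62 and 5.18 in can, 1.11 and 2.10 in mip40, 3.36 and 3.33 in CG9879 and 3.80 and 3.86 in wt. The lowest 2 of the 14 libraries were those of mip40. hh fell by 0.92 in mip40 against wt (SE 0.25, limma, adjusted p = 0.0085) in each scaling, and the call was lost without mip40 replicate 1 (-0.64, adjusted p = 0.0688) and without the 4 libraries with accessory gland RNA (-0.93, adjusted p = 0.0938). Its level was also lower in mip40 than in can, by -1.32 (adjusted p = 0.00207), in each scaling, and that call too was lost without those 4 libraries (-1.27, adjusted p = 0.0606). About 11 and 22 fragments stand behind the FPKM of hh in mip40. In bam, hh rose by 1.22 against wt as deposited (adjusted p = 0.00151), and the difference was 0.25 under median-of-ratios scaling (adjusted p = 0.357).

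Of the early cyst genes, tj, zfh1 and Egfr had their highest mean in bam. tj (FBgn0000964; chromosome 2L, 19464267 to 19467758, plus strand), the Maf factor of the early cyst lineage, had 9.85 and 11.2 FPKM in mip40/bam, 12.1 and 16.1 in bam, 2.08 and 2.54 in can, 2.82 and 3.53 in comr, 2.71 and 2.94 in mip40, 1.21 and 0.47 in CG9879 and 1.31 and 1.05 in wt. The libraries fell into 3 levels that do not overlap: the testes mutant for bam, the spermatocyte-arrest mutants, and CG9879 with wt. Against wt, tj rose by 2.79 in bam (SE 0.21, limma, adjusted p = 1.19e-06), a mean fold of 11.98 and the largest rise among the 10 genes, in each scaling. The rises in comr (0.93), mip40 (0.81) and can (0.60) were called as deposited, but under median-of-ratios scaling they were 0.13, 0.11 and -0.14 with no call. The call in can was also lost without can replicate 2 (0.50), without wt replicate 1 (0.69) and without wt replicate 2 (0.52).

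zfh1 (FBgn0004606; chromosome 3R, 30765926 to 30789202, plus strand), a repressor of cyst stem cells, shares exons with the antisense gene asRNA:CR45189, so its FPKM is uncertain to that extent. It had 11.1 and 11.4 FPKM in mip40/bam, 23.0 and 24.7 in bam, 11.1 and 11.8 in can, 9.00 and 9.03 in comr, 8.21 and 10.5 in mip40, 2.12 and 2.85 in CG9879 and 4.18 and 4.89 in wt. The bam libraries lay above all others and the CG9879 libraries below all others. zfh1 rose by 2.17 in bam against wt (SE 0.14, limma, adjusted p = 3.09e-07), a mean fold of 5.26, in each scaling. In can, mip40 and comr it rose by 1.17, 0.89 and 0.86 as deposited, but the differences were 0.14, -0.06 and -0.21 under median-of-ratios scaling, with no call. In CG9879 it fell by 0.67 against wt (adjusted p = 0.0149) in each scaling, and this call was lost without CG9879 replicate 1 (-0.52, adjusted p = 0.0736), without wt replicate 2 (-0.58, adjusted p = 0.086) and without the 4 libraries with accessory gland RNA (-0.92, adjusted p = 0.0603).

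Egfr (FBgn0003731; chromosome 2R, 21522420 to 21559977, plus strand) ranged from 1.31 FPKM in a CG9879 library to 5.91 in a bam library. It had 4.49 and 3.88 FPKM in mip40/bam, 4.46 and 5.91 in bam and 3.59 and 4.62 in mip40, groups that overlap, against 1.37 and 1.63 in wt. In bam it rose by 1.30 (SE 0.18, limma, adjusted p = 1.00e-04) in each scaling. Its rises in mip40 (1.02), comr (0.55) and can (0.53) against wt were called as deposited, but were 0.25, -0.29 and -0.26 under median-of-ratios scaling, with no call. The calls in comr and can were each lost when 1 of 2 libraries was left out: comr replicate 2 (0.48) or wt replicate 1 (0.47) for comr, and can replicate 2 (0.36) or wt replicate 1 (0.46) for can. They were lost as well without the 4 libraries with accessory gland RNA (0.41 in comr and 0.63 in can).

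chinmo (FBgn0086758; chromosome 2L, 1651258 to 1704682, plus strand), a BTB zinc finger factor that cyst stem cells need for self-renewal, ran the other way. It had 5.06 and 5.87 FPKM in mip40/bam, 23.6 and 20.9 in bam, 54.9 and 59.2 in can, 60.3 and 52.3 in comr, 61.1 and 59.3 in mip40, 39.5 and 32.9 in CG9879 and 35.4 and 36.7 in wt. In order, the spermatocyte-arrest mutants lay above CG9879 and wt, then bam, then mip40/bam, with no overlap between those 4 levels. About 678 and 698 fragments stand behind the values in mip40/bam, 1219 and 1084 in bam and 774 and 823 in wt. FPKM is corrected for transcript length, so a change in which chinmo transcripts are made could move it. Scaling of libraries does not address that part, and it was not tested. chinmo fell by 0.68 in bam against wt (SE 0.11, limma, adjusted p = 3.43e-04) in each scaling. It rose by 0.72 in mip40, 0.65 in can and 0.63 in comr against wt as deposited, but was called lower in all 3 under median-of-ratios scaling, at -0.36, -0.51 and -0.59. Between mutants with like size factors by the median of ratios the gap was wide. chinmo was 1.30 higher in comr than in bam (limma, adjusted p = 5.53e-06), 1.32 higher in can than in bam (3.29e-06) and 3.24 higher in mip40 than in mip40/bam (5.30e-09), in each scaling. The last pair differs in annotation and in summed FPKM, with 691667 and 661746 in mip40, against 1.30e+06 and 1.29e+06 in mip40/bam. The genes most like chinmo over the 14 libraries were CG34376 (r = 0.99), CG31635 (0.98) and the histone methyltransferase gene Set2 (0.98).

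Set against bam, Fas3, tj, zfh1 and Egfr were lower in both comr and can, in each scaling. In comr against bam, 8 of the 10 genes were called, beside 59.7% of all genes tested, and in can against bam 8 were called, beside 74.6%. Fas3 was lower by -2.54 in comr (limma, adjusted p = 1.28e-05) and -2.81 in can (4.22e-06), tj by -1.85 (4.49e-05) and -2.18 (9.67e-06), and zfh1 by -1.31 (2.51e-05) and -0.997 (1.24e-04), in each scaling. dome and Egfr were lower in comr than in bam, by -0.85 (adjusted p = 1.56e-05) and -0.75 (0.00522), again in each scaling, while dome was not called in can (0.03, adjusted p = 0.812) and ptc in neither. The mip40 tables use another annotation than those of mip40/bam, and its part was not tested. In mip40 against mip40/bam, where 7 of the 10 genes were called beside 70.5% of all genes tested, hh was lower by -2.02 (6.19e-05), tj by -1.59 (1.03e-04) and Fas3 by -1.56 (3.07e-04), in each scaling. dome was 0.30 higher there (adjusted p = 0.0101) as deposited, but -0.18 under quantile normalization with no call, and zfh1 (-0.25), Egfr (-0.03) and ptc (0.27) were not called. upd1 was 1.71 higher in can than in bam as deposited (1.08e-04) but -0.06 under quantile normalization (adjusted p = 0.817).

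ptc (FBgn0003892; chromosome 2R, 8649649 to 8665223, plus strand) encodes the Hedgehog receptor, and its transcription is a textbook readout of Hedgehog signalling. It had 4.27 FPKM in each wt library and between 1.69 and 2.90 in the 12 mutant libraries, with no overlap. Against wt it fell by 0.65 in mip40 (SE 0.12, limma, adjusted p = 9.22e-04) and by 0.51 in can (adjusted p = 0.00448), in each scaling. It fell by 0.77 in bam (adjusted p = 2.70e-04) and by 0.61 in comr (adjusted p = 0.00127) as deposited, but quantile normalization gave 0.38 and -0.12 with no call. In CG9879 it fell by 0.55 (adjusted p = 0.022), a call lost without CG9879 replicate 2 (-0.44), without either wt library (-0.55 each), without the 4 libraries with accessory gland RNA (-0.43) and under quantile normalization (-0.54, adjusted p = 0.127). The order of hh and that of ptc differed: by their means, bam and mip40/bam had the most hh and the least ptc, with ptc in bam overlapping that in mip40, whereas wt had the most ptc.

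dome (FBgn0043903; chromosome X, 19676061 to 19683518, minus strand), the JAK-STAT receptor, was highest in can and bam. It had 20.2 and 22.3 FPKM in mip40/bam, 38.7 and 38.4 in bam, 36.5 and 42.2 in can, 21.6 and 20.1 in comr, 26.0 and 26.8 in mip40, 20.1 and 18.8 in CG9879 and 17.5 and 18.1 in wt. The can and bam libraries overlapped each other and lay above all others. Between mutants scaled alike, dome was lower in comr than in can by -0.88 (limma, adjusted p = 1.90e-05) and lower in mip40 than in can by -0.56 (adjusted p = 5.52e-04), in each scaling. Against wt the rises of 1.10 in can and 1.07 in bam as deposited came to -0.04 and -0.01 under median-of-ratios scaling, so no direction is given for dome against wt. The same holds for mip40 (0.54 and -0.52) and comr (0.22 and -0.96).

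eya (FBgn0000320; chromosome 2L, 6527447 to 6546976, minus strand), the late cyst gene, had the narrowest range by fold of the 10, between 9.99 FPKM in a comr library and 22.6 in a mip40/bam library. It had 22.6 and 21.8 FPKM in mip40/bam, 11.98 and 14.4 in bam, 17.0 and 16.9 in can, 9.99 and 10.6 in comr, 17.6 and 17.7 in mip40, 14.5 and 11.97 in CG9879 and 11.2 and 10.7 in wt. Among the spermatocyte-arrest mutants it was 0.73 higher in mip40 than in comr, where 4 of the 10 genes were called beside 45.6% of all genes tested (SE 0.11, limma, adjusted p = 5.45e-04), in each scaling. Against wt it rose by 0.64 in mip40 and by 0.59 in can as deposited, and was called lower, by -0.40 and -0.52, under median-of-ratios scaling. The differences of bam (0.24, adjusted p = 0.0675) and comr (-0.09, adjusted p = 0.489) from wt were not called as deposited, and median-of-ratios scaling gave -0.81 and -1.23.

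**Figure D2:**
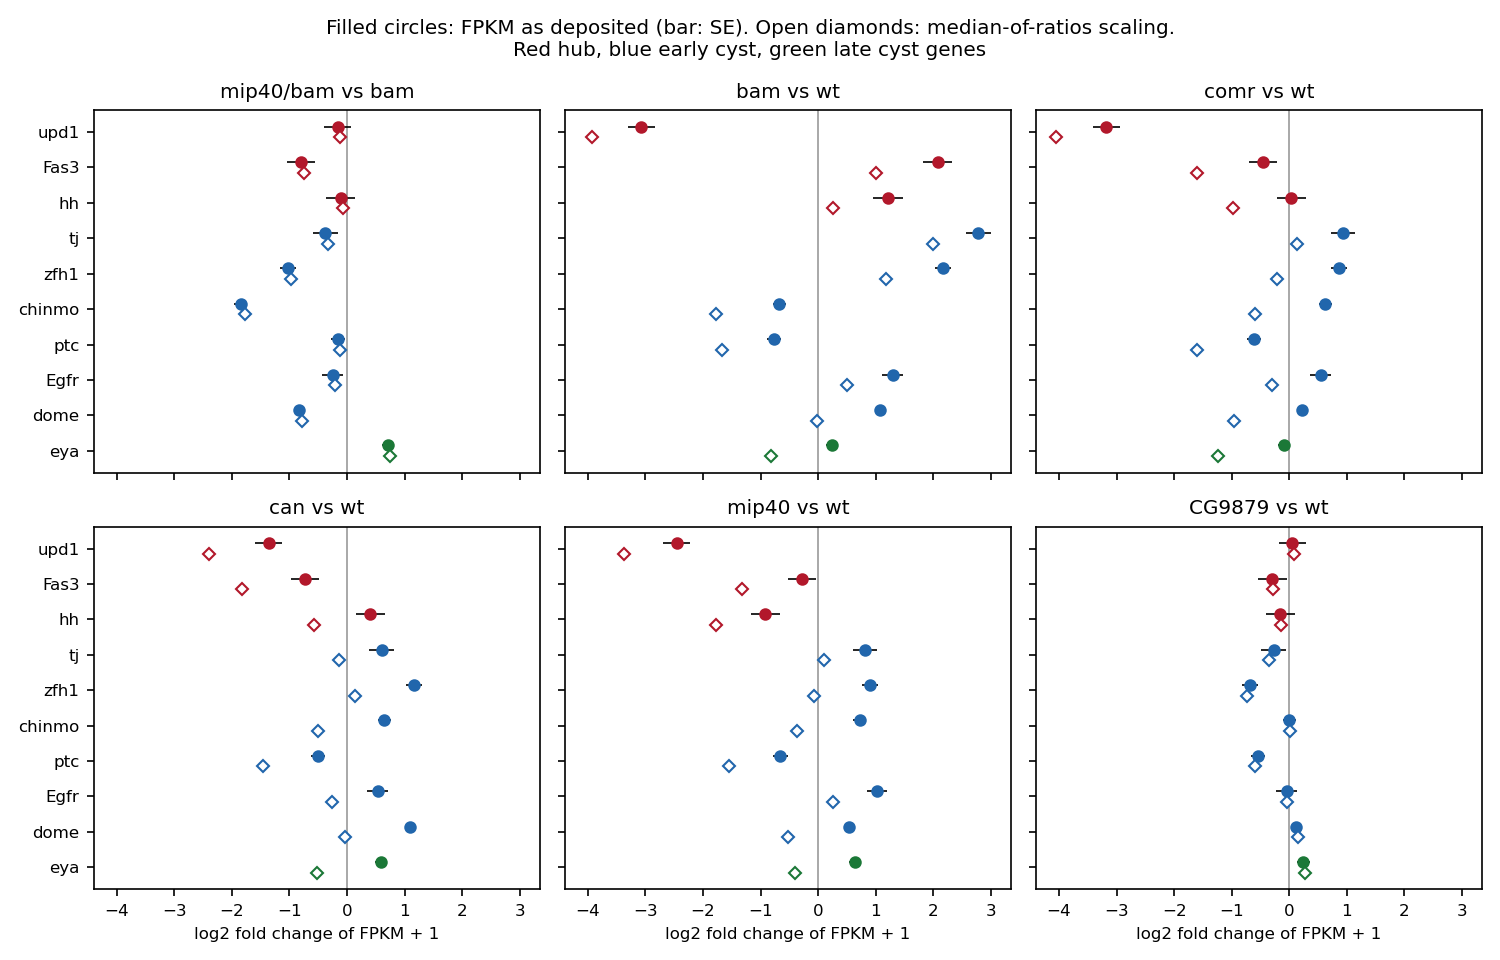
Log2 fold change of FPKM + 1 (horizontal axis) for the 10 genes in 6 comparisons; filled circles are FPKM as deposited with the SE as a bar, open diamonds the same fit after median-of-ratios scaling. The diamonds lie left of the circles in the 4 comparisons of bam, comr, can and mip40 with wt, and close to them in the other 2, mip40/bam against bam and CG9879 against wt.

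Ratios of 2 genes within a library do not depend on its scale. The ratio of eya to tj FPKM was 2.29 and 1.94 in mip40/bam, 0.99 and 0.90 in bam, 8.18 and 6.67 in can, 3.55 and 2.99 in comr, 6.51 and 6.01 in mip40, 12.1 and 25.3 in CG9879 and 8.59 and 10.2 in wt. Every library of bam, mip40/bam, comr, can and mip40 lay below both wt libraries. Within the arrest mutants, comr lay below can and mip40. The CG9879 value of 25.3 rests on about 8 fragments of tj. The ratio of eya to zfh1 was 0.52 and 0.58 in bam and 4.21 to 6.87 in CG9879, against 2.69 and 2.19 in wt, without overlap. The ratio of tj to zfh1 was 0.89 and 0.99 in mip40/bam and 0.53 and 0.65 in bam, against 0.31 and 0.21 in wt. No test was made of these ratios.

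**Figure D3:**
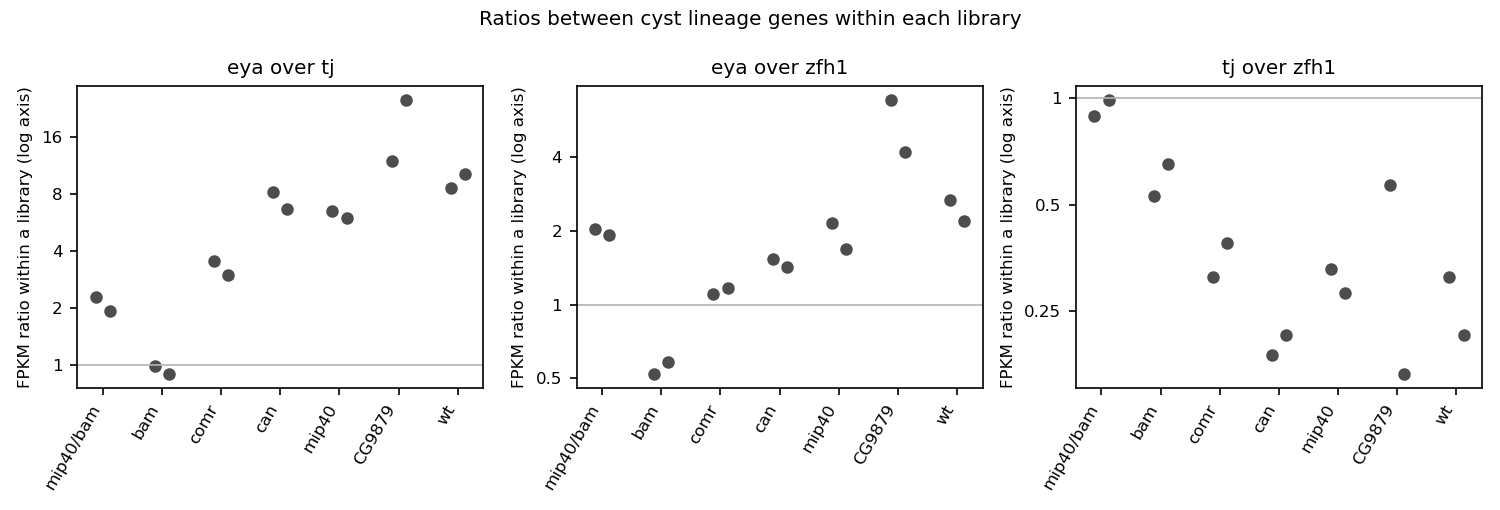
Ratios of FPKM between cyst lineage genes within each library (logarithmic vertical axes, points are libraries) for the 7 genotypes. eya over tj is lowest in bam, near 1, and eya over zfh1 is below 1 in bam only.

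Counted over the comparisons, bam against wt called 6 of the 10 genes higher (44.2% of all 12971 genes tested) and 3 lower (34.4% of all); 4 and 2 of them kept their call in each scaling, as did 3738 and 3813 of all genes tested. The median of the 10 was 1.14 (log2) as deposited, against 0.21 over all genes tested, and 0.12 against -0.46 under median-of-ratios scaling. Over genes with a mean of at least 10 FPKM the median was 0.65 as deposited and -0.39 under median-of-ratios scaling. comr against wt called 5 higher (48.5% of all) and 2 lower (27.9%), of which upd1 kept its call in each scaling. can against wt called 6 higher (51% of all) and 3 lower (20.4%), and mip40 against wt called 6 higher (47.8% of all) and 3 lower (25.4%). In can and in mip40 the 3 lower calls held in each scaling and no higher call did. Over all genes tested, 3445 higher and 3123 lower calls held in each scaling in comr, 2907 and 2329 in can and 3277 and 2744 in mip40. In CG9879 against wt none was higher (4.26% of all) and 2 were lower (7.24% of all). With so many genes called in each contrast with an arrested mutant, a share near the background is not a result about these 10. Leaving out each library in turn and every other planned setting left 6 calls in bam (upd1, Fas3, tj, zfh1, chinmo and Egfr), 2 in can and 2 in mip40 (upd1 and ptc in each), 1 in comr (upd1) and 0 in CG9879. Egfr and ptc did not pass the filter of 5 FPKM in 2 libraries, so that setting did not test them.

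Another comparison of the design sets mip40/bam against bam, that is, loss of mip40 in testes already mutant for bam. There chinmo, zfh1, dome and Fas3 were lower and eya was higher. In mip40/bam against bam 1 of the 10 was higher (16.4% of all genes tested) and 4 were lower (19.7% of all), with a median of -0.31 against 0.00 over all genes tested. chinmo fell by 1.84 (SE 0.11, limma, adjusted p = 4.61e-06), with means of 5.46 FPKM in mip40/bam and 22.2 in bam, a mean fold of 0.25. zfh1 fell by 1.02 (SE 0.14, adjusted p = 4.27e-04) and dome by 0.83 (SE 0.09, adjusted p = 8.99e-05). Fas3 fell by 0.80 (SE 0.25, adjusted p = 0.0316), and its call was lost whichever of the 4 libraries was left out: bam replicate 1 (-0.91), bam replicate 2 (-0.68), mip40/bam replicate 1 (-0.91) or mip40/bam replicate 2 (-0.68), with adjusted p from 0.0649 to 0.164. These 4 falls held in each scaling. eya rose by 0.71 (SE 0.11, adjusted p = 7.86e-04), and with equal summed FPKM the rise was 0.31 (adjusted p = 0.0569). tj (-0.38, adjusted p = 0.232), hh (-0.11, adjusted p = 0.913), Egfr (-0.25, adjusted p = 0.381), ptc (-0.15, adjusted p = 0.432) and upd1 (-0.16, adjusted p = 0.752) were not called.

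The test of the interaction, whether mip40 loss made another difference in testes mutant for bam than against wt, called 7 of the 10 genes, beside 70% of all genes tested. chinmo and zfh1 were called in it in each scaling. upd1 was called too, but at 0.44 and 0.48 FPKM in bam it had almost no range left to fall there, so its interaction does not bear on the effect of mip40 loss.

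Other measured differences stand beside these changes. The mip40/bam tables use another annotation than the bam tables, as do those of CG9879 beside wt, where the same genes differed by 0.00 (chinmo), -0.67 (zfh1), 0.12 (dome), -0.29 (Fas3) and 0.25 (eya). Muscle genes also differed: summed FPKM of 10 muscle sheath genes was 373 and 345 in mip40/bam, against 115.2 and 154 in bam. Of the 10, 8 were called higher (16.4% of all genes tested), 5 of them in each scaling. Mlc1 had 67.3 and 64.4 FPKM in mip40/bam, against 12.2 and 24.0 in bam (1.88, limma, adjusted p = 0.00395), and Mlc2 rose by 1.93 (adjusted p = 0.00128). The early germ cell gene AGO3 fell to 61.8 and 77.8 FPKM in mip40/bam, against 250.5 and 235 in bam (-1.79, limma, adjusted p = 4.92e-05). Of the 6 genes of its list, 2 were lower (19.7% of all genes tested). The part of annotation, muscle and germ cells in the somatic differences was not tested.

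**Figure D4:**
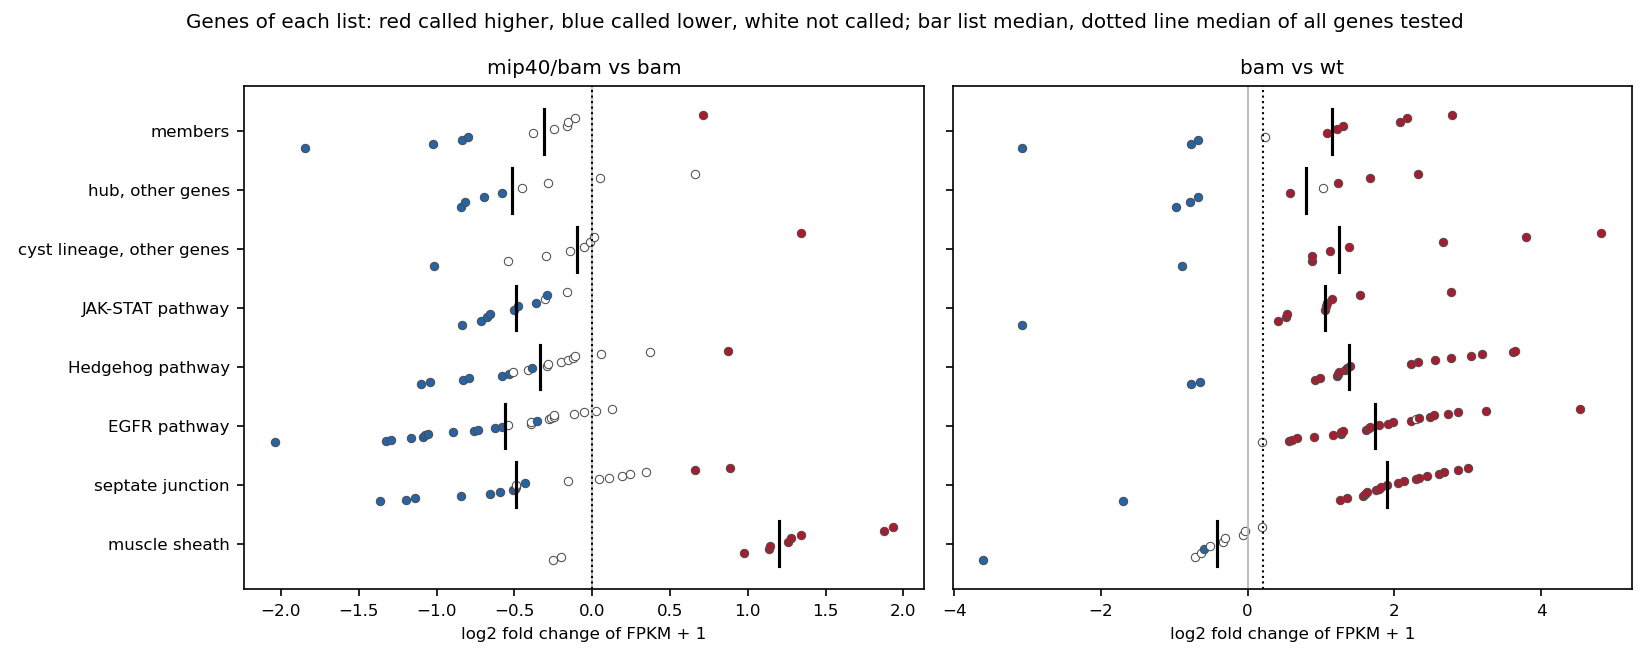
Log2 fold change of FPKM + 1 (horizontal axis) for each tested gene of 8 lists in mip40/bam against bam and in bam against wt; red and blue points were called higher and lower, white points were not called, bars are list medians and the dotted line is the median of all genes tested. In mip40/bam most called pathway genes are lower and most muscle sheath genes higher.

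Stat92E and hop lie downstream of upd1 in the JAK-STAT pathway. In the mutants where upd1 was lower, Stat92E was higher in each scaling, and so was hop except in bam. Of 13 genes listed, 10 were tested, upd1 and dome among them. In bam against wt 9 were higher (44.2% of all genes tested) and 1 (upd1) lower (34.4%). There 1 of the 9 and upd1 kept their call in each scaling. The list's median was 1.06 as deposited and 0.00 under median-of-ratios scaling. Stat92E, the transcription factor of the pathway, had 151 and 153 FPKM in bam, 53.0 and 59.4 in can, 74.2 and 80.0 in comr and 88.4 and 89.6 in mip40, against 21.1 and 21.8 in wt. It rose by 2.77 in bam (SE 0.07, limma, adjusted p = 4.31e-10), by 1.80 in comr, by 1.35 in can and by 2.003 in mip40, in each scaling. The kinase gene hop rose by 1.59 in comr, 1.73 in can and 1.65 in mip40 in each scaling, and in bam by 1.05 as deposited but by 0.00 under median-of-ratios scaling. The feedback inhibitor Socs36E, a standard readout of Stat92E, had 5.30 and 5.31 FPKM in bam, against 3.29 and 3.46 in wt, a rise of 0.53 as deposited that was -0.40 under median-of-ratios scaling. The list gave 7 higher (48.5% of all genes tested) and 3 lower (27.9%) in comr. There ken, a repressor of Stat92E targets, had 1.11 and 2.67 FPKM, against 12.2 and 11.1 in wt. The same list gave 8 higher (51% of all genes tested) and 1 lower (20.4%) in can, and 8 (47.8%) and 2 (25.4%) in mip40. Of the higher calls, 4 (comr), 5 (can) and 3 (mip40) held in each scaling. In CG9879 0 of 10 were called, beside 4.26% higher and 7.24% lower of all genes tested. In mip40/bam against bam 8 of the 10 were lower (19.7% of all genes tested) and none higher (16.4%). There hop fell by 0.71 (limma, adjusted p = 0.00304), with no call under quantile normalization (-0.55, adjusted p = 0.0521). Stat92E fell by 0.29 (adjusted p = 0.0121), a call lost without bam replicate 1 (-0.29), bam replicate 2 (-0.28) or mip40/bam replicate 1 (-0.25).

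Of 18 Hedgehog pathway genes, all tested, 16 were higher (44.2% of all genes tested) and 2 lower (34.4%) in bam against wt. Of these, 11 of the higher and none of the lower ones kept their call in each scaling. ci, the transcription factor that Hedgehog activates, had 7.38 and 7.10 FPKM in bam and 8.33 and 7.56 in can, against 2.34 and 2.12 in wt. It rose by 1.35 in bam (SE 0.16, limma, adjusted p = 3.29e-05) and by 1.47 in can (adjusted p = 2.53e-05), in each scaling, while its rise of 0.74 in comr became -0.20 under median-of-ratios scaling. smo, the transducer that Ptc holds in check, had 20.8 and 19.9 FPKM in mip40/bam, 30.9 and 27.9 in bam and 4.95 in 1 wt library, and was listed at 0 in the other, so no fold is given. boi, a Hedgehog co-receptor, had 22.2 and 21.7 FPKM in can and 3.16 and 4.29 in bam and was listed at 0 in both libraries of CG9879 and of wt. The list gave 13 higher (48.5% of all genes tested) and 1 lower (27.9%) in comr against wt, and 13 (51%) and 2 (20.4%) in can. It gave 12 (47.8%) and 2 (25.4%) in mip40, and 0 (4.26%) and 3 (7.24%) in CG9879. Of the higher calls, 6 in comr, 6 in can and 7 in mip40 held in each scaling, and the list's median under median-of-ratios scaling was -0.16, -0.33 and -0.02 there. In mip40/bam against bam 7 were lower (19.7% of all genes tested) and 1 higher (16.4%). The kinases Pka-C1 (-1.10, limma, adjusted p = 5.78e-04) and sgg (-1.04, adjusted p = 6.39e-05) were among the lower ones in each scaling, while ci (-0.29, adjusted p = 0.229) was not called.

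Of 27 genes of the EGFR pathway, 24 were tested. In bam against wt 22 were higher (44.2% of all genes tested), 16 of them in each scaling, and none was lower (34.4%). spi, the ligand that germ cells make, had 82.1 and 79.2 FPKM in bam, against 22.7 and 27.0 in wt, and rose by 1.66 (SE 0.15, limma, adjusted p = 4.17e-06) in each scaling. stet, the germline protease that processes such ligands, had 50.7 and 52.0 FPKM in mip40/bam and 70.5 and 64.9 in bam, against 1.82 and 2.10 in wt, a rise of 4.54 in bam (adjusted p = 2.53e-09) in each scaling. The target gene aos, which encodes a secreted inhibitor of the receptor, had 6.47 and 5.51 FPKM in bam, against 0.67 and 0.86 in wt (1.99, adjusted p = 1.36e-06), in each scaling. In CG9879, spi fell to 14.9 and 11.4 FPKM, against 22.7 and 27.0 in wt (-0.88, adjusted p = 0.0062), in each scaling, a call lost without the 4 libraries with accessory gland RNA (-0.82, adjusted p = 0.0541). The list gave 18 higher in comr (48.5% of all genes tested), 22 in can (51%) and 17 in mip40 (47.8%). None was lower there, beside 27.9%, 20.4% and 25.4% of all genes tested. Of the higher calls, 8, 7 and 13 held in each scaling. In CG9879 it gave 1 higher (4.26%) and 3 lower (7.24%). In mip40/bam against bam 13 were lower (19.7% of all genes tested) and none higher (16.4%). There kek1, another target gene with an inhibitory product, fell by 2.04 (limma, adjusted p = 3.93e-05) and the repressor gene cic by 1.32 (adjusted p = 3.03e-05), in each scaling. aos fell by 1.16 (adjusted p = 3.92e-04), with no call under quantile normalization (-0.64, adjusted p = 0.0556), and spi was not called (-0.28, adjusted p = 0.214).

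Septate junction genes, whose products seal the cyst cells around the germ cells in later cysts, were tested for all 19 listed. In bam against wt 18 were higher (44.2% of all genes tested) and 1 lower (34.4%), 17 and 1 of them in each scaling. dlg1 rose by 3.01 (limma, adjusted p = 1.14e-09) and vari by 2.86 (adjusted p = 3.60e-08), while nrv2, which encodes a sodium pump subunit, fell to 64.1 and 72.4 FPKM in bam, against 223 and 224 in wt (-1.70, adjusted p = 3.32e-08); the 3 calls held in each scaling. nrv2 was lower than in wt in comr (-1.38), can (-0.56) and mip40 (-0.60) too, in each scaling. In mip40/bam testes 10 of the 19 were lower than in bam (19.7% of all genes tested) and 2 were higher (16.4%). There dlg1 was lower by -1.37 (limma, adjusted p = 7.77e-06), scrib lower by -1.20 (adjusted p = 3.01e-05) and nrv2 higher by 0.89 (adjusted p = 4.89e-05), in each scaling. Many septate junction genes are also used in other epithelia and in germ cells, so the list is not particular to cyst cells.

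Among 8 other genes of the hub, 4 were higher and 3 lower in bam against wt, shares near those of all genes tested (44.2% and 34.4%), and 2 and 1 of them kept their call in each scaling. shg, which encodes E-cadherin, had 36.2 FPKM in each bam library, against 10.6 and 10.8 in wt (1.67, limma, adjusted p = 2.50e-07), and dally, a glypican gene, had 17.8 and 20.3 FPKM in bam, against 2.83 and 3.19 in wt (2.32, adjusted p = 1.90e-07), in each scaling. esg, a zinc finger gene that maintains hub identity, had 5.90 and 3.88 FPKM in bam and 1.15 and 1.66 in can, against 11.02 and 9.89 in wt. It fell by 0.98 in bam (adjusted p = 5.45e-04) and by 2.26 in can (adjusted p = 2.22e-06), in each scaling. It was not called in comr (-0.27, adjusted p = 0.19), where upd1 fell most, and its fall of 0.70 in mip40 was not called with equal summed FPKM (adjusted p = 0.0625). The neural cadherin gene CadN fell by 1.31 in comr (adjusted p = 1.49e-05), and the glypican gene dlp rose by 3.49 in mip40 (adjusted p = 2.35e-08), to 74.3 and 71.9 FPKM, against 5.45 and 5.75 in wt. These calls too held in each scaling. Set against bam, mip40/bam testes had 4 lower (19.7% of all genes tested) and none higher (16.4%), with shg lower by -0.82 (limma, adjusted p = 2.99e-04).

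Among 8 other genes of the cyst lineage, so, which encodes the DNA-binding partner of Eya, was lower in comr (-1.35, limma, adjusted p = 1.38e-04) and mip40 (-1.39, adjusted p = 1.27e-04) than in wt, in each scaling, and in bam (-0.89, adjusted p = 0.00206) with no call under quantile normalization (-0.19, adjusted p = 0.246). Six4, a relative of so, was higher in comr (1.81) and can (2.28) than in wt, in each scaling. piwi, which acts in somatic and germ cells, had 187 and 202 FPKM in bam, against 6.10 and 5.77 in wt, a rise that held in each scaling, and was listed at 0 in both can libraries and in 1 of comr. The list gave 7 higher (44.2% of all genes tested) and 1 lower (34.4%) in bam against wt, and 5 (51%) and 2 (20.4%) in can. It gave 4 (48.5%) and 1 (27.9%) in comr, 4 (47.8%) and 1 (25.4%) in mip40 and 0 (4.26%) and 1 (7.24%) in CG9879. Of the higher calls, 3 in bam (where 44.2% of all genes tested were higher) and 2 each in can, comr and mip40 held in each scaling. Beside bam, mip40/bam testes had more Six4, a rise of 1.34 (adjusted p = 0.00219), and less puc, a JNK phosphatase gene, which fell by 1.02 (adjusted p = 8.50e-05), in each scaling. The other 6 were not called.

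Markers of other cell types differed from mutant to mutant. Muscle sheath genes were 0 higher (44.2% of all genes tested) and 2 lower (34.4%) of 10 in bam against wt, and 3 (51%) and 1 (20.4%) in can. They were 8 (48.5%) and 1 (27.9%) in comr, 0 (47.8%) and 5 (25.4%) in mip40 and 0 (4.26%) and 0 (7.24%) in CG9879. None of the higher calls in comr and can held in each scaling, and the list's median under median-of-ratios scaling was -0.38 in comr and -0.51 in can. Of 5 neuron genes tested, bam against wt had 1 higher (44.2% of all genes tested) and 3 lower (34.4%). Set against wt, comr had 2 (48.5%) and 2 (27.9%), and can 2 (51%) and 2 (20.4%). The mip40 counts were 0 (47.8%) and 2 (25.4%), those of CG9879 0 (4.26%) and 2 (7.24%). For mip40/bam against bam they were 1 (16.4%) and 1 (19.7%). Of 5 haemocyte and fat body genes, beside the same shares, bam, comr and mip40 each had 1 higher and 2 lower. The counts were 1 and 0 for can, 0 and 1 for CG9879, and 1 and 1 for mip40/bam against bam. Summed FPKM of the 6 spermatid genes was 20.5 and 19.5 in mip40/bam, 7.38 and 1.11 in bam and 17317 and 18588 in CG9879, against 17443 and 16688 in wt. It was 3645 and 3360 in comr, 2431 and 2487 in can and 4646 and 5299 in mip40.

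The authors' deposited table of Cuffdiff results, made on an earlier annotation, gives values per transcript. Its transcripts and scale need not be those behind the gene values, so it does not settle which transcripts carry them. In the authors' deposited table the RC transcript of Fas3 had 27.6 FPKM in bam, against 4.08 in wt (q = 0.0302), while RA, RB and RD had 4.28, 3.44 and 5.01 in bam, against 5.37, 2.79 and 6.63 in wt (q = 0.755, 0.826 and 0.649). The authors' deposited table gave RC of Fas3 as 19.4 FPKM in mip40/bam, against 35.7 in bam (q = 0.00445). For chinmo, the authors' deposited table gave the RD transcript as 16.1 FPKM in bam, against 30.2 in wt (q = 1.97e-04), and as 1.92 in mip40/bam, against 23.2 in bam (q = 3.82e-04). RC of chinmo was lower too in the authors' deposited table, at 2.41 FPKM in mip40/bam, against 5.31 in bam (q = 0.0360). RA of chinmo, at 2.42 FPKM in mip40/bam and 2.50 in bam, was not significant in the authors' deposited table (q = 0.962). For the single dome transcript the authors' deposited table gave 23.1 FPKM in bam, against 22.2 in wt (q = 0.796), a ratio near that of median-of-ratios scaling, and 25.4 in mip40/bam, against 41.4 in bam (q = 3.82e-04). For upd1-RA the authors' deposited table gave 0.21 FPKM in bam, against 11.96 in wt (q = 0.0224), and for ptc-RA 1.29 in bam, against 5.38 in wt (q = 1.97e-04). Some calls made above were not significant in the authors' deposited table. Among these were upd1-RA at 0.19 FPKM in comr, against 12.1 in wt (q = 0.190), Egfr-RA at 2.87 in bam, against 1.90 (q = 0.145), and hh-RB at 0.65 in mip40, against 3.53 (q = 0.282). Others there were dome in can (q = 0.363), zfh1-RA in comr (q = 0.731) and mip40 (q = 0.473), and every Fas3 transcript in can (q = 0.233 to 0.687). Conversely, the authors' deposited table gave eya-RB as lower in comr, at 4.53 FPKM, against 8.28 in wt (q = 0.0373). It gave eya-RA as lower in bam, at 2.06, against 4.58 in wt (q = 0.0485). The fit per gene as deposited called eya in neither. In comr the authors' deposited table gave dome as lower, at 12.6 FPKM, against 22.5 in wt (q = 0.00109). Both eya transcripts were higher in mip40/bam in the authors' deposited table, RB at 17.5 FPKM, against 10.3 in bam (q = 0.00158), and RA at 8.51, against 3.82 in bam (q = 0.0126).

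Over the 14 libraries, tj went with Egfr (r = 0.88), zfh1 (0.85) and Fas3 (0.84), and zfh1 with Egfr (0.87), whereas chinmo had r of -0.64 with tj and -0.23 with zfh1, and eya had r between -0.53 (with ptc) and 0.51 (with Egfr) with the other 9. The genes most like tj in the whole table were CG4617 (r = 0.99), the importin gene msk (0.99) and the GTPase gene R (0.99). msk had 170.3 and 175.5 FPKM in mip40/bam and 204 and 204 in bam, against 31.0 and 30.2 in wt. For Fas3 the closest were CG4612 (0.97), blot (0.97) and CG8620 (0.97), for zfh1 ade3 (0.97), Nup153 (0.97) and CG3651 (0.96), and for hh wgn (0.95), CG6398 (0.95) and ida (0.95). For Egfr they were CG32579 (0.96), RhoGEF2 (0.96) and CG8414 (0.95), for ptc resilin (0.95), CR45614 (0.94) and H15 (0.94), for dome CG42260 (0.94), Lar (0.91) and mus101 (0.91), and for eya PGRP-LB (0.95), CG11835 (0.90) and Rh4 (0.89). PGRP-LB had 9.67 and 7.37 FPKM in mip40/bam and 2.38 and 4.10 in bam, against 3.56 and 3.15 in wt.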

How the data were processed

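Per the labels, TruSeq libraries were made from polyadenylated RNA of adult testes and read on a MiSeq. Per the submitters' processing notes, TopHat, Cufflinks and Cuffdiff were used, with builds dm3 and dm6; their versions and any use of strand are not given. The authors deposited FPKM per gene for each library (BDGP6) and, for 6 comparisons, p-values and q-values per transcript (BDGP5). The 4 tables of CG9879 and mip40/bam list 17480 genes, the other 10 list 16745; they were joined by symbol and overlapping position. Fragments were worked out from the deposited confidence limits (80.8% of values under 20 fragments came out whole within 0.02, for genes with 1 transcript); they cover counting error only.

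The 12971 genes that reached 1 FPKM in 2 or more libraries entered limma 3.58.1 (R 4.3.3) on log2(FPKM + 1), a scale that understates changes of low genes, with an intensity trend over 7 groups (7 residual degrees of freedom, prior 1.82), two-sided, Benjamini-Hochberg adjusted over all genes and called at 0.05. With 2 libraries a group, an exact permutation test of 1 gene cannot pass that threshold. Alternatives were 3 scalings, another pseudocount, other filters, no trend, a replicate block and libraries left out. The members and lists were chosen with earlier results of these data known. All 10 members are named, and from each list up to 2 called genes a direction with the largest change and no overlap, plus pathway ligands, receptors, transcription factors and known readouts. Genes listed at 0 may be failed estimates. Python 3.11.15, numpy 2.4.6, pandas 2.3.3 and matplotlib 3.10.9 joined and plotted the data.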

Additional observations from a re-analysis of the deposited data

Results flagged for a closer look

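For 7 of the 10 genes the difference that mip40 loss made in testes mutant for bam differed from the one it made against wt, by limma's test of the interaction (mip40/bam minus bam, less mip40 minus wt; 70% of all genes tested were called in it). chinmo was 1.84 lower in mip40/bam than in bam and 0.72 higher in mip40 than in wt as deposited, an interaction of -2.57 (SE 0.16, adjusted p = 6.91e-07). zfh1 gave -1.92 (adjusted p = 1.89e-05), and the calls of these 2 held in each scaling. upd1 gave 2.29 (adjusted p = 1.99e-04), but at 0.44 and 0.48 FPKM in bam it had almost no range left to fall there, so this value does not bear on the effect of mip40 loss. dome gave -1.38 (adjusted p = 6.25e-06), Egfr -1.27 (adjusted p = 0.00162) and tj -1.19 (adjusted p = 0.00611), and median-of-ratios scaling ended these 3 calls, at -0.27 (adjusted p = 0.119), -0.46 (adjusted p = 0.152) and -0.44 (adjusted p = 0.278). ptc gave 0.50 (adjusted p = 0.0285), a call lost under quantile normalization, equal summed FPKM or a pseudocount of 0.1, and without mip40/bam replicate 1 or 2, bam replicate 1, mip40 replicate 1 or wt replicate 1 or 2. The mip40/bam tables carry another annotation and wt the low FPKM scale, and the part of either in these values was not tested.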

How the results depend on the processing

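Most changes of sign against wt came with the scale. Under median-of-ratios scaling the sign turned for dome (-0.0113) and eya (-0.81) in bam; for hh (-0.97), zfh1 (-0.21), chinmo (-0.59), Egfr (-0.29) and dome (-0.96) in comr; for hh (-0.58), tj (-0.14), chinmo (-0.51), Egfr (-0.26), dome (-0.0372) and eya (-0.52) in can; for zfh1 (-0.0642), chinmo (-0.36), dome (-0.52) and eya (-0.40) in mip40; and for Socs36E in bam (-0.40) and ci in comr (-0.20). Under quantile normalization it turned for ptc in bam (0.38), dome in comr (-0.30) and mip40 (-0.0454), hh (-0.17) and eya (-0.26) in can, Egfr (0.0591) and ci (0.0310) in CG9879, upd1 in can against bam (-0.0578) and hh in mip40/bam against bam (0.0037), and with equal summed FPKM for chinmo in CG9879 (-0.0233). Some uncalled differences turned when 1 library was left out: hh in comr gave -0.21 to 0.28, upd1 in CG9879 -0.10 to 0.21, tj in CG9879 -0.56 to 0.0217, chinmo in CG9879 -0.13 to 0.13, Egfr in CG9879 -0.12 to 0.0347, hop in CG9879 -0.23 to 0.0558 and hh in mip40/bam against bam -0.39 to 0.17. Without the 4 libraries with accessory gland RNA, hh in comr gave -0.21, tj in CG9879 0.11 and ci in CG9879 0.0273. The cause was not tested.

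Genes called in CG9879 against wt numbered 1492, and without each library 942 (wt replicate 1) to 1226 (CG9879 replicate 1); the calls of the other comparisons stayed within 1.5 times under every setting. Scaling moved the share of higher calls in bam against wt to 38.3% by median of ratios and 63.9% by quantiles, from 56.2% as deposited. With a replicate block CG9879 against wt had 1395 calls and mip40/bam against bam 4621, against 4682 without it, and the block ended no call named here. The labels give no pairing of equal replicate numbers across genotypes. Correlations of deviations ran from -0.48 to 0.48, and the largest in size were among comr, can, CG9879 and wt. Those genotypes each have 1 library with accessory gland RNA, and its part in the correlations was not tested. With the numbers of comr, CG9879 and mip40 crossed, a pairing chosen after seeing the data, CG9879 against wt had 1405 calls and mip40/bam against bam 4586. Depth limits upd1 in mip40/bam, bam and comr, and tj in CG9879, to a handful of fragments.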
